A study of Bos grunniens x Bos taurus and Bos grunniens with 6 samples.

Results

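The smooth muscle contractile genes were followed in testis libraries of 3 cattle-yak (C1 to C3) and 3 yak (Y1 to Y3), with 1 library per animal. The members were the rows of the expression table whose symbol, ignoring case, was ACTA2, MYH11, TAGLN, CNN1, DES, MYL9, TPM2, SMTN, MYLK or CALD1, and each gene ID was kept as its own row. Of the 10 symbols, 9 were matched, each on 1 row of the 18918 genes in the table. No row carried the symbol MYL9. A row without a symbol, described as myosin light chain 9 (ENSBGRG00000014570), is reported beside the members but was not counted among them.

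The cattle-yak were F1 males of a Jersey bull and a Gannan yak cow, and the yak were Gannan males, all 4 years old. F1 cattle-yak males are sterile, and the study asked how gene expression in their testis differs from that of yak after sexual maturity. Each group was kept in a county of its own. Testes of cattle-yak were removed by castration and those of yak were collected from euthanized animals, so genotype, place and collection cannot be told apart. Testis pieces of both groups were frozen in liquid nitrogen, sequenced as stranded mRNA libraries and mapped to the yak genome LU_Bosgru_v3.0, which is the genome of only 1 parent of the cattle-yak.

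Smooth muscle contracts when a rise in calcium activates myosin light chain kinase, which phosphorylates the regulatory light chain of smooth muscle myosin and lets it pull on actin filaments. Tropomyosin, calponin, caldesmon, transgelin and smoothelin bind these filaments, and the intermediate filament protein desmin links the contractile units. In the testis this set of proteins is known from the peritubular myoid cells, which lie flat around the seminiferous tubules and move their contents forward, and also from the muscle layer of blood vessels.

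Expression was given as FPKM, fragments scaled to the length of the gene model and to the depth of the library. Whole fragments recovered from these values showed that each library rested on 11175100 to 11834987 fragments in cattle-yak and on 12991641 to 13136129 in yak. A single fragment on a 1 kb gene was worth 0.0761 to 0.0895 FPKM. Among cell type markers, the summed FPKM of 9 spermatid genes was 57.7 to 194.1 in the cattle-yak libraries against 9870 to 11840 in those of yak. The sum of 11 Sertoli genes was 2896 to 3197 against 624 to 690, and that of 5 Leydig genes was 10413 to 12397 against 3333 to 4856. Most of the Leydig sum was INSL3, with a mean of 11173.5 FPKM in cattle-yak and 3842 in yak. None of these genes was listed at 0 in every library, and the part of these shifts in the results was not tested. In bulk tissue, more smooth muscle cells, more RNA per cell and a smaller share of RNA from other cells cannot be told apart.

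With the FPKM as deposited, 8 of the 9 contractile genes rose in cattle-yak testis and none fell. Once the libraries were set to equal levels of Sertoli or Leydig markers, none was called higher and 2 were called lower. Of all genes tested, 0.186% were called higher under either centring, and 74% (Sertoli) or 73.9% (Leydig) lower. As deposited, SMTN was the gene that did not pass, since its fold change was under the threshold. The rise was largest for ACTA2 and MYH11 among the 9 (5.45-fold and 5.62-fold in mean FPKM) and smallest for TPM2 among the 8 called (2.23-fold), while SMTN differed 1.72-fold. To be called, a gene had to pass an adjusted p of 0.05 (limma, Benjamini-Hochberg) and differ by a log2 (foldchange) over 1 up or down. By this rule 33.4% of the 15042 genes tested were called higher and 20.8% lower. In all 9 genes every cattle-yak library lay above every yak library, which held for 53.9% of the genes tested. The median log2 (foldchange) of the 9 genes was 1.90, and that of all genes tested was 0.51.

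ACTA2 (ENSBGRG00000017216), smooth muscle alpha-actin and the usual marker of myoid cells, was the most abundant member in each of the 6 libraries. Its FPKM was 377.2, 504.6 and 363.5 in C1 to C3, against 84.8, 67.8 and 76.0 in Y1 to Y3. The lowest cattle-yak library lay far above the highest yak library, and C2 stood above C1 and C3. The log2 (foldchange) was 2.42 ± 0.15 (SE, adjusted p = 1.8e-06 in limma), and the animals of a group spread by 18.7% of their mean in cattle-yak and 11.2% in yak. These values rested on 4891 to 6541 fragments in cattle-yak against 1030 to 1292 in yak. The actins are highly alike in sequence, and how reads shared between near-identical copies were counted is not given in the sources used here, so the division of reads among actin genes is uncertain.

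MYH11 (ENSBGRG00000024236), the heavy chain of smooth muscle myosin and thus the motor of the contractile unit, had 62.4, 78.4 and 60.2 FPKM in C1 to C3. In Y1 to Y3 it had 14.6, 11.1 and 10.04 FPKM. The groups were well apart, with C2 and Y1 the highest libraries of their groups. The log2 (foldchange) was 2.40 ± 0.16 (SE, adjusted p = 3.1e-06 in limma), from means of 67.0 ± 9.93 and 11.9 ± 2.38 FPKM (SD, n = 3).

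MYLK (ENSBGRG00000008571) encodes the kinase that switches the myosin on. It had 24.2, 26.7 and 27.3 FPKM in the cattle-yak libraries and 6.20, 4.41 and 5.54 in the yak libraries. The cattle-yak animals were close together here, with a spread of 6.26% of their mean, the smallest among the 9 genes in cattle-yak. The log2 (foldchange) was 2.09 ± 0.14 (SE, adjusted p = 3.1e-06 in limma). MYLK also gives transcripts for longer, non-muscle forms of the kinase, which a value per gene does not separate.

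The light chain that MYLK phosphorylates in smooth muscle is encoded by MYL9. The row described as this light chain had 236.1, 357.8 and 320.7 FPKM in C1 to C3, and 91.4, 75.4 and 57.2 in Y1 to Y3. No library of a group overlapped the other group, and the log2 (foldchange) was 2.02 ± 0.20 (SE, adjusted p = 2.8e-05 in limma). The gene model is short, 519 bases, and the value rested on 386 to 623 fragments in yak. If this row is counted with the members, 9 of 10 rows were called higher and the median was 1.91.

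TAGLN (ENSBGRG00000025309), or transgelin, a calponin-like protein that binds actin filaments, was second in abundance. It had 67.7, 98.7 and 84.0 FPKM in C1 to C3 and 24.2, 20.5 and 18.7 in Y1 to Y3. The log2 (foldchange) was 1.92 ± 0.16 (SE, adjusted p = 9.0e-06 in limma). CNN1 (ENSBGRG00000013580), the basic calponin that restrains myosin's action on actin, had 21.4, 25.1 and 26.8 FPKM in cattle-yak and 6.61, 5.43 and 5.55 in yak. Its log2 (foldchange) was 1.89 ± 0.14 (SE, adjusted p = 4.4e-06 in limma), on 155 to 189 fragments in yak, the lowest numbers among the members. Neither gene overlapped between the groups.

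CALD1 (ENSBGRG00000004004), or caldesmon, holds tropomyosin-coated actin filaments in a relaxed state. It was the least abundant member in both groups by its mean, with 15.2, 21.1 and 18.2 FPKM in C1 to C3 and 5.79, 4.46 and 5.31 in Y1 to Y3. The log2 (foldchange) was 1.63 ± 0.16 (SE, adjusted p = 2.4e-05 in limma). The gene gives a long smooth muscle form and a short form found in many cells, and the value per gene covers both.

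DES (ENSBGRG00000020017), desmin, had 31.3, 48.3 and 33.1 FPKM in cattle-yak and 10.4, 9.39 and 7.83 in yak. The groups did not overlap, although C2 stood well above C1 and C3 and the spread of the cattle-yak animals, 24.9% of their mean, was the widest among the 9 genes in either group. The log2 (foldchange) was 1.90 ± 0.18 (SE, adjusted p = 2.2e-05 in limma).

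TPM2 (ENSBGRG00000004079), beta-tropomyosin, lies along the actin filament of smooth and striated muscle. It had 26.3, 36.2 and 27.2 FPKM in C1 to C3 and 15.6, 12.4 and 12.2 in Y1 to Y3. The libraries were apart, but the log2 (foldchange) of 1.09 ± 0.16 (SE, adjusted p = 2.5e-04 in limma) was just past the threshold. Without C2 it was 0.95 and no longer called, and it was 0.94 under quantile scaling and 0.50 under median-of-ratios scaling. Among all genes tested, 69.7% had a lower log2 (foldchange) than TPM2.

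SMTN (ENSBGRG00000025006), smoothelin, a protein of contractile smooth muscle cells, had 18.6, 22.3 and 20.5 FPKM in cattle-yak and 13.9, 10.9 and 10.9 in yak. The lowest cattle-yak library was above the highest yak library, and the log2 (foldchange) was 0.74 (95% confidence interval 0.43 to 1.05, adjusted p = 1.0e-03 in limma). The adjusted p passed the threshold and the fold change did not. The interval includes the threshold of 1. By the adjusted p alone 52.6% of the genes tested were higher. Among all genes tested, 57.7% had a lower log2 (foldchange) than SMTN.

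**Figure D1:**
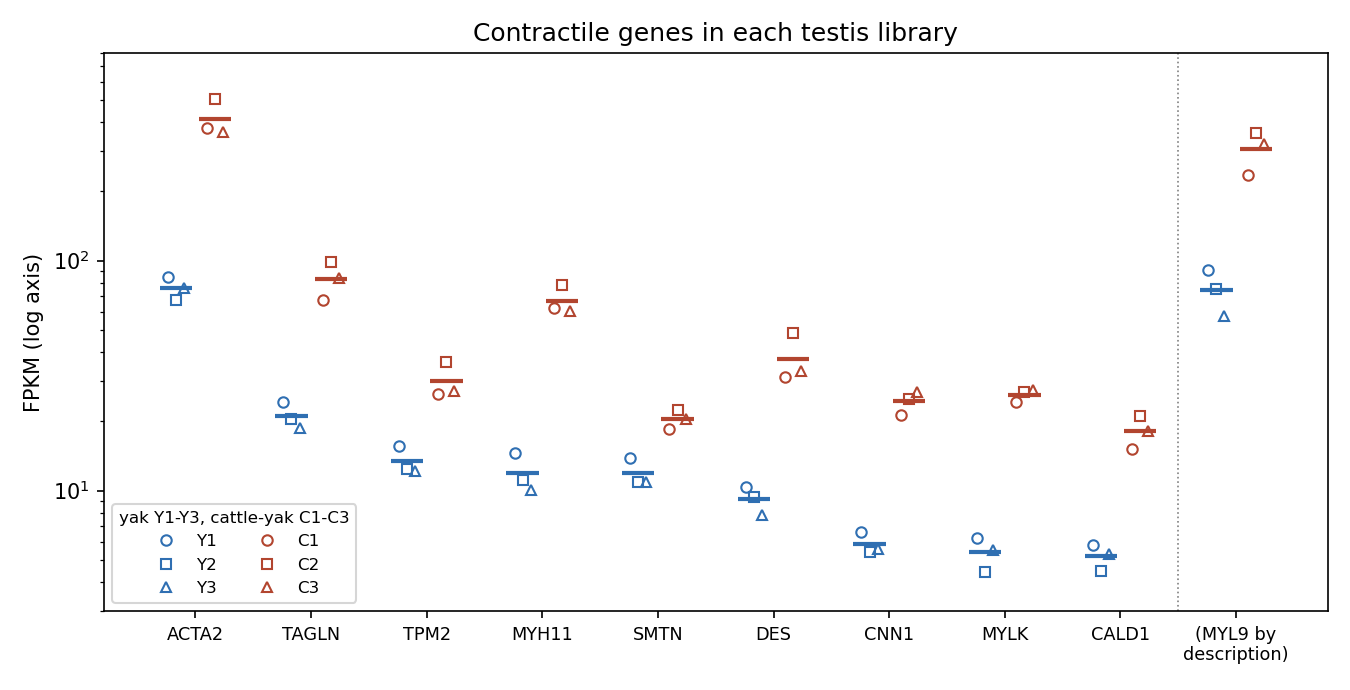
FPKM as deposited (log axis) of the 9 contractile genes and the row described as MYL9 in each of the 6 testis libraries, 1 symbol per library. In every gene the 3 cattle-yak libraries lie above the 3 yak libraries, with ACTA2 from 363.5 to 504.6 against 67.8 to 84.8 and SMTN from 18.6 to 22.3 against 10.9 to 13.9.

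The libraries within a group moved together over these genes. Y1 was the highest yak library in 9 of 9 members, against 32.7% of the genes tested, and C2 was the highest cattle-yak library in 7 of 9, against 37.8%. CNN1 and MYLK were highest in C3. C2 also had the largest sums of FPKM over the stromal fibroblast (640), endothelial (72.0) and pericyte (195.8) markers, and Y1 the largest yak sum over the Leydig markers (4856). The part of these differences in the members' values was not tested. Leaving out C2 gave 7 called members and a median log2 (foldchange) of 1.79, and leaving out any other library gave 8.

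In summed FPKM the 9 genes reached 644.4, 861.5 and 660.8 in C1 to C3 and 182.1, 146.3 and 152.1 in Y1 to Y3. The mean sums were 722 ± 121 and 160.2 ± 19.2 (SD, n = 3), a 4.51-fold difference. Of all FPKM they made up 0.122% ± 0.023 in cattle-yak against 0.027% ± 0.0034 in yak (SD, n = 3).

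Within this sum the members did not keep their proportions. The share of ACTA2 was 58.5%, 58.6% and 55.0% in the cattle-yak libraries and 46.6%, 46.3% and 49.9% in the yak libraries, with no overlap. TPM2 took 4.08%, 4.21% and 4.11% in cattle-yak and 8.59%, 8.47% and 8.04% in yak. SMTN took 2.89%, 2.59% and 3.10% against 7.63%, 7.42% and 7.20%. For both of these genes the share in cattle-yak was under that in every yak library, with a narrow spread inside each group. The share of MYH11 was higher in each cattle-yak library (9.30% ± 0.33 against 7.41% ± 0.73, SD, n = 3) and that of CALD1 lower (2.52% ± 0.21 against 3.24% ± 0.23). The shares of TAGLN, DES, CNN1 and MYLK overlapped between the groups. Shares of this kind do not depend on the scaling between libraries, but they add up to a whole that is dominated by ACTA2.

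The log2 ratio of each member to ACTA2 in the same library gave a like order. Relative to ACTA2, SMTN was lower in cattle-yak by a mean log2 difference of −1.68, TPM2 by −1.33 and CALD1 by −0.79, with no overlap of the groups. TAGLN, CNN1, DES and MYLK differed by −0.50, −0.53, −0.52 and −0.33, also without overlap. MYH11 differed by −0.02 and the libraries of the groups overlapped. Of the 15042 genes tested, 91% were lower relative to ACTA2 without overlap and 0.585% were higher, so a lower ratio to ACTA2 was the common case.

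The order of the levels differed in part between the groups. In yak the mean FPKM fell from ACTA2 through TAGLN, TPM2, MYH11, SMTN, DES, CNN1 and MYLK to CALD1. TPM2 and MYH11, MYH11 and SMTN, CNN1 and MYLK, and MYLK and CALD1 were neighbours whose ranges overlapped there. In cattle-yak the order ran ACTA2, TAGLN, MYH11, DES, TPM2, MYLK, CNN1, SMTN and CALD1. Only ACTA2 from TAGLN and MYH11 from DES were apart in range among these neighbours. SMTN thus moved from the fifth place in yak to the eighth in cattle-yak, and DES from the sixth to the fourth.

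The direction of the members' change was read under several scalings, since the libraries differed in most genes. Under median-of-ratios scaling, which sets the median log2 (foldchange) of all genes to 0.01, 7 members were called higher and none lower, against 17.7% and 27.7% of the genes tested. The median of the members was then 1.32, TPM2 had 0.50 and SMTN 0.16. Under Sertoli-centred scaling, in which each library was shifted to the same mean level of the 11 Sertoli markers, none was called higher and 2 were called lower, against 0.186% and 74% of the genes tested. ACTA2 then had 0.18, MYH11 0.16, TPM2 −1.14 and SMTN −1.50, and the median was −0.34. A centring on the 5 Leydig markers gave nearly the same values, with a median of −0.33 and again 2 members lower, against 73.9% of the genes tested. Under quantile scaling 7 members were called higher and none lower, against 30.2% and 21.6% of the genes tested. With voom on the recovered fragments 8 were called higher (39.6% of the genes tested, 22.7% lower), and with voom and TMM size factors 7 (24.3%, and 29.5% lower). In each of the 20 fits the 9 members lay above the median of all genes tested, and their own median exceeded it by 1.30 to 1.71.

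**Figure D2:**
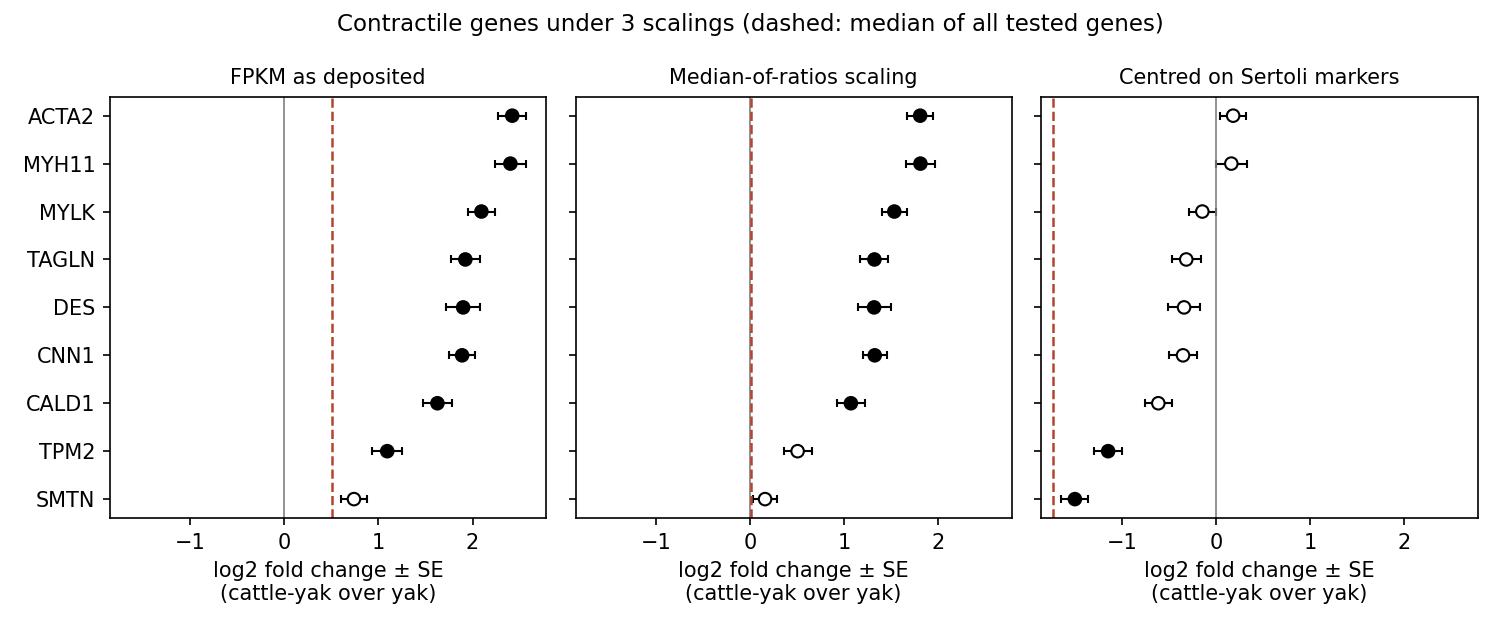
Log2 (foldchange) of the contractile genes, cattle-yak over yak, with SE (bars), for FPKM as deposited, median-of-ratios scaling and Sertoli-centred scaling, with the median of all tested genes as a dashed line. The whole set shifts between the panels, from 2.42 for ACTA2 and 0.74 for SMTN as deposited to 0.18 and −1.50 after centring on the Sertoli markers.

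Most contractile proteins have non-muscle paralogs that nearly all cells use, and a ratio of both within a library is free of the scaling. Of 11 such ratios, 7 were higher in cattle-yak without overlap, 2 were lower without overlap and 2 overlapped. Ratios of all other genes to these paralogs were not computed, so whether such counts are unusual was not tested. The smallest p of a two-sided exact permutation test of 3 animals against 3 is 0.1, which the 9 ratios without overlap reached (adjusted p = 0.12 over the 11 ratios), so none could pass 0.05.

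For actin, the ratio of ACTA2 to the cytoplasmic gamma-actin ACTG1 was 0.37, 0.55 and 0.42 in C1 to C3 and 0.16, 0.11 and 0.15 in Y1 to Y3. This is a log2 difference of 1.65 without overlap. Against the cytoplasmic beta-actin ACTB the same gene had ratios of 0.17, 0.22 and 0.17 in cattle-yak and 0.17, 0.14 and 0.14 in yak. The groups overlapped here, with a log2 difference of 0.31 (exact permutation test, p = 0.2).

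For the myosin motor, MYH11 stood at 3.15, 2.76 and 2.88 times the non-muscle heavy chain MYH9 in cattle-yak and at 1.63, 1.63 and 1.51 times in yak. Against MYH10, a further non-muscle heavy chain, the log2 ratio was higher by 1.24, and neither ratio overlapped between the groups. The row described as MYL9 against the row described as the non-muscle light chain MYL12A gave 0.79, 1.11 and 0.84 in cattle-yak and 0.69, 0.67 and 0.49 in yak, a log2 difference of 0.57 without overlap.

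Among the actin-binding proteins, the ratio of TAGLN to TAGLN2 differed most among the 11, with 0.73, 1.13 and 0.76 in cattle-yak and 0.30, 0.20 and 0.26 in yak. CNN1 was higher against CNN2 and CNN3, by 1.22 and 1.13 on the log2 scale. TPM2 went the other way, since its ratio to TPM3 was 0.28, 0.33 and 0.24 in cattle-yak and 0.48, 0.45 and 0.37 in yak. Its ratio to TPM4 was 0.37, 0.44 and 0.36 against 0.99, 0.96 and 0.75, a log2 difference of −1.20, with each cattle-yak library below each yak library. TPM3, TPM4 and CNN3 stood on more than 1 row of the table, of which the most abundant was used, so these ratios are uncertain where reads were divided among copies. The ratio of DES to vimentin, the intermediate filament of most mesenchymal cells, overlapped between the groups (log2 difference −0.21, exact permutation test, p = 0.3).

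**Figure D3:**
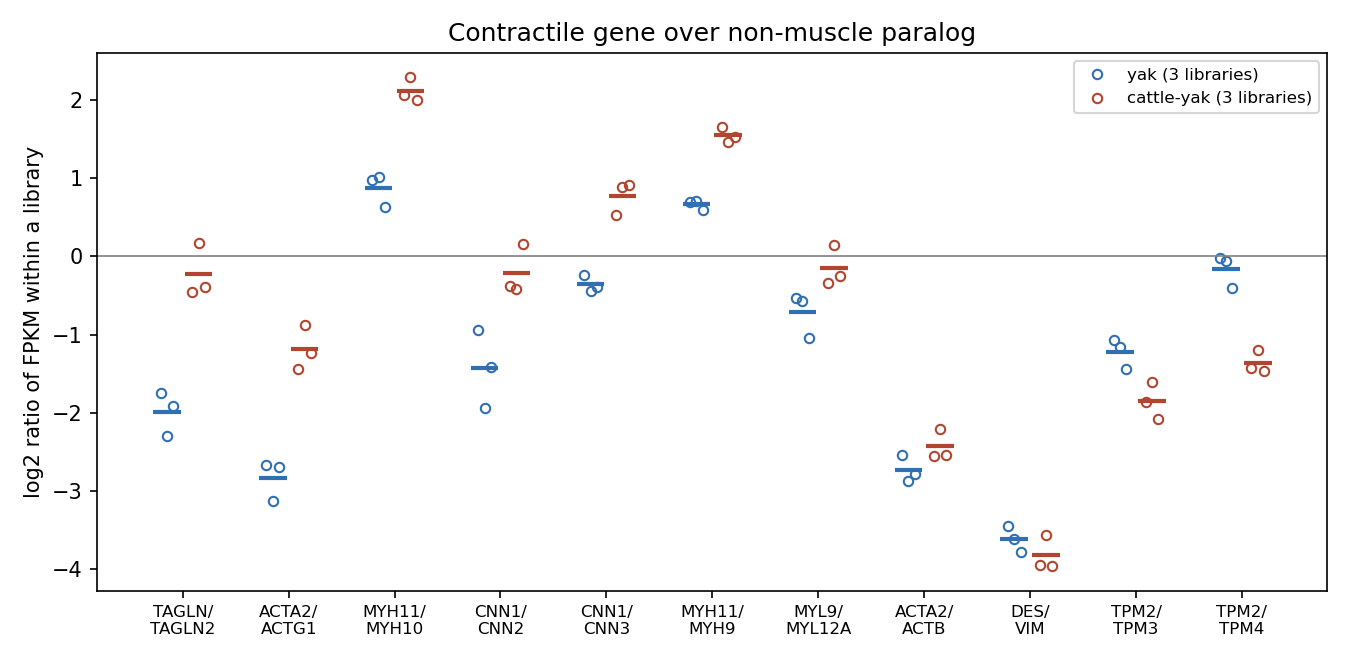
Log2 ratio of FPKM of a contractile gene to its non-muscle paralog within each library, as points for the 3 yak and the 3 cattle-yak libraries of each ratio. The cattle-yak points lie above the yak points for 7 ratios, with the widest gap for TAGLN to TAGLN2 (1.76), below them for TPM2 to TPM3 and TPM4, and among them for ACTA2 to ACTB and DES to VIM.

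The non-muscle paralogs ranged from far above the members, as ACTB, to far below them, as TAGLN3, which was named after its values were seen (0.97 FPKM in cattle-yak). Of 15 tested, 7 were called higher and 0 lower, against 33.4% and 20.8% of all genes tested. Their median log2 (foldchange) was 0.84, against 0.51 for all genes. After centring on the Sertoli markers 9 were called lower and none higher, where 74% of all genes were lower. ACTB reached 2215 ± 108.2 FPKM against 506 ± 16.0 in yak (log2 (foldchange) 2.13). VIM reached 523 ± 43.5 against 112.2 ± 3.63 (2.21), and the row described as MYL12A 334 ± 42.7 against 120.7 ± 10.1 (1.46), all with SD and n = 3. ACTG1 had a log2 (foldchange) of 0.78 and was not called, and TPM4 had the largest of the list, 2.28.

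Further proteins of the smooth muscle filaments and their attachment to the membrane were taken from a list of 16 genes, of which 15 were found and tested. With FPKM as deposited 11 were called higher and 0 lower, against 33.4% and 20.8% of all genes tested. The median log2 (foldchange) was 1.42. Under Sertoli-centred scaling 0 were called higher and 7 lower, against 74% of all genes lower. The actin crosslinker ACTN1, named after its values were seen, had 18.9 ± 4.21 against 28.9 ± 1.63 FPKM (SD, n = 3) and was below every yak library in each cattle-yak library, and its log2 (foldchange) of −0.61 was under the fold threshold (adjusted p = 7.3e-03 in limma). MYL6, the essential light chain shared by smooth and non-muscle myosin, had 355.9 ± 38.8 FPKM against 168.2 ± 5.55 (1.07). CSRP1, a protein of the actin cytoskeleton, had 93.0 ± 19.9 against 34.1 ± 8.06 (1.42). Vinculin (VCL), which ties actin to adhesion sites, had 77.6 ± 6.19 against 12.2 ± 1.86 (2.58), and filamin A (FLNA), an actin crosslinker, 67.2 ± 14.2 against 11.7 ± 3.28 (2.44). PDLIM3, an adaptor bound to alpha-actinin, had the largest change of the list, 40.7 ± 8.01 against 4.15 ± 0.47 FPKM (SD, n = 3, log2 (foldchange) 3.004). The gamma-actin of visceral smooth muscle, ACTG2, named here after its values were seen, had 13.1 ± 1.09 against 2.63 ± 0.25 FPKM (1.96).

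Of 18 genes found and tested in the list on calcium, kinases and phosphatases that control contraction, 6 were called higher and 3 lower, near the 33.4% and 20.8% of all genes tested. The median log2 (foldchange) was 0.30, under the 0.51 of all genes. PPP1CB, the catalytic subunit of myosin phosphatase, rose most among them, with 206.8 ± 6.80 FPKM against 44.5 ± 3.17 (2.19). GUCY1A1 and GUCY1B1, the subunits of the guanylate cyclase through which nitric oxide relaxes smooth muscle, fell by 1.33 and 1.12 in log2 terms. RHOA, a GTPase that restrains myosin phosphatase through its kinases, had 337 ± 30.1 FPKM against 340 ± 26.2 in yak, with a log2 (foldchange) of −0.01. ATP2A2, the calcium pump of the sarcoplasmic reticulum, had −0.38 and was not called. Under Sertoli-centred scaling 0 of the 18 were called higher and 13 lower, near the 74% of all genes called lower there. Genes of this list are expressed by many cell types.

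Of 9 tested receptors for contractile agonists, 3 were called higher and 2 lower with FPKM as deposited, near the 33.4% and 20.8% of all genes tested. Under Sertoli-centred scaling 0 were called higher and 6 lower, against 74% of all genes lower. EDNRA, the endothelin receptor that contracts smooth muscle, had 25.8, 42.9 and 26.7 FPKM in C1 to C3 and 6.69, 4.30 and 5.26 in Y1 to Y3 (log2 (foldchange) 2.33). PDGFRB, the receptor of mural cells, had 12.3 ± 6.07 against 3.21 ± 0.30 FPKM (SD, n = 3, 1.56), and the third, the angiotensin receptor AGTR1, named after its values were seen, had 1.71. The oxytocin receptor OXTR fell by 2.47, from 6.01 ± 1.34 to 0.27 ± 0.22 FPKM, and the adrenergic receptor ADRA1D fell by 2.46, from 5.64 ± 3.10 to 0.09 ± 0.06 (SD, n = 3). Both receptors were near the floor of the measurement in cattle-yak.

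Transcription regulators of smooth muscle genes were represented by 14 genes, of which 13 were tested. With FPKM as deposited 8 were called higher and 1 lower, against 33.4% and 20.8% of all genes tested. The median log2 (foldchange) was 1.14. SRF, the factor that binds the CArG boxes of contractile genes, had 35.6 ± 4.69 FPKM against 23.0 ± 1.01 in yak (0.60, not called). GATA6, a zinc finger factor of smooth muscle that gonadal somatic cells also express, rose most, with 25.0 ± 1.88 against 3.05 ± 0.59 FPKM (2.69), and MEF2A, a MADS-box factor of muscle genes, rose by 1.14. The SRF coactivators myocardin (MYOCD) and MRTFA, named after their values were seen, had log2 (foldchange) of 1.26 and 1.56. MYOCD had 2.17 ± 0.57 FPKM against 0.32 ± 0.25 (SD, n = 3). In yak it was near the floor of the measurement, on 25, 4 and 12 fragments in Y1 to Y3. A further coactivator, MRTFB, also named after its values were seen, had 9.47 ± 0.96 against 18.4 ± 1.86 FPKM (SD, n = 3), a log2 (foldchange) of −0.89 that was under the fold threshold (adjusted p = 2.8e-04 in limma). KLF4, known to repress smooth muscle genes and abundant in spermatids, fell by 2.54, from 80.2 ± 3.19 to 13.0 ± 1.12 FPKM (SD, n = 3). Under Sertoli-centred scaling 0 of the 13 were called higher and 7 lower, against the same 74%.

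Bulk tissue does not show which cells held the contractile transcripts, so markers of the cells that could hold them were read beside the members. Other markers linked to peritubular myoid cells had summed FPKM of 146.6 to 216.5 in cattle-yak against 32.8 to 50.9 in yak, and 8 of 9 were called higher and 0 lower (median log2 (foldchange) 2.01). The nuclear receptor NR2F2 had 1.86 and the activin subunit INHBA 1.80, although the study counts INHBA among Leydig cell markers. GLI1 and SFRP1 are named after their values were seen. GLI1, a myoid marker in the study, had 2.17. SFRP1 had 0.35, was not called and overlapped between the groups. FHL2, a LIM protein, had the largest value of the list, 2.52, and it and EDNRA also belong to lists above. Pericyte and vascular smooth muscle markers summed to 135.3 to 195.8 against 56.1 to 71.6 FPKM, and 7 of 13 were called higher and 1, CASQ2, lower (−1.53). RGS5, a pericyte gene, led this list with 91.3 ± 12.3 against 34.0 ± 8.19 FPKM (SD, n = 3, log2 (foldchange) 1.42). Of 8 endothelial markers 5 were called higher and VWF lower (−1.85), and all 8 stromal fibroblast markers were called higher. Of all genes tested, 33.4% were called higher and 20.8% lower with FPKM as deposited. These counts depended on the scaling. Under median-of-ratios scaling 8 of 9 myoid, 1 of 13 pericyte, 0 of 8 endothelial and 8 of 8 stromal markers were called higher, against 17.7% of the genes tested, and 0, 1, 1 and 0 lower. Under Sertoli-centred scaling none of the 4 lists had a gene called higher, and 1 myoid, 9 pericyte, 6 endothelial and 0 stromal markers were called lower, against 74% of the genes tested. With FPKM as deposited the median log2 (foldchange) was 1.03 for the pericyte and vascular smooth muscle list, 1.16 for the endothelial, 2.01 for the myoid, 2.05 for the Leydig, 2.24 for the Sertoli and 2.46 for the stromal list. The members had 1.90, and the distances between these medians were not tested.

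These markers cannot decide the label of myoid cells, since lists of other somatic cells rose as well with FPKM as deposited. All 8 stromal, 11 Sertoli and 5 Leydig markers tested were called higher, beside 8 of 9 myoid markers. Markers of vascular smooth muscle were also present in every library, so the cells of origin cannot be told apart. Of 14 striated muscle genes found, the skeletal actin ACTA1 had a mean of 0.25 FPKM in cattle-yak and 0.37 in yak, and the skeletal myosins MYH1 and MYH2 had means of 0.12 or lower. Other genes of the list were expressed in yak, and its summed FPKM was 9.62 to 19.1 in cattle-yak against 96.1 to 122.0 in yak. In that list 0 of 6 tested genes were called higher and 3 lower, against 33.4% and 20.8% of all genes tested. MYLPF fell from 61.6 ± 12.3 FPKM in yak to 6.48 ± 3.95 (log2 (foldchange) −3.17), MYOT from 31.7 ± 0.90 to 0.96 ± 1.02 (−4.21) and TTN from 8.44 ± 0.86 to 0.85 ± 0.53 (−2.39), with SD and n = 3. TTN stood on 3 rows, of which the most abundant, with a gene model of 1329 bases, was used. TNNC2 had the largest positive log2 (foldchange) of the list, 0.66, and was not called.

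**Figure D4:**
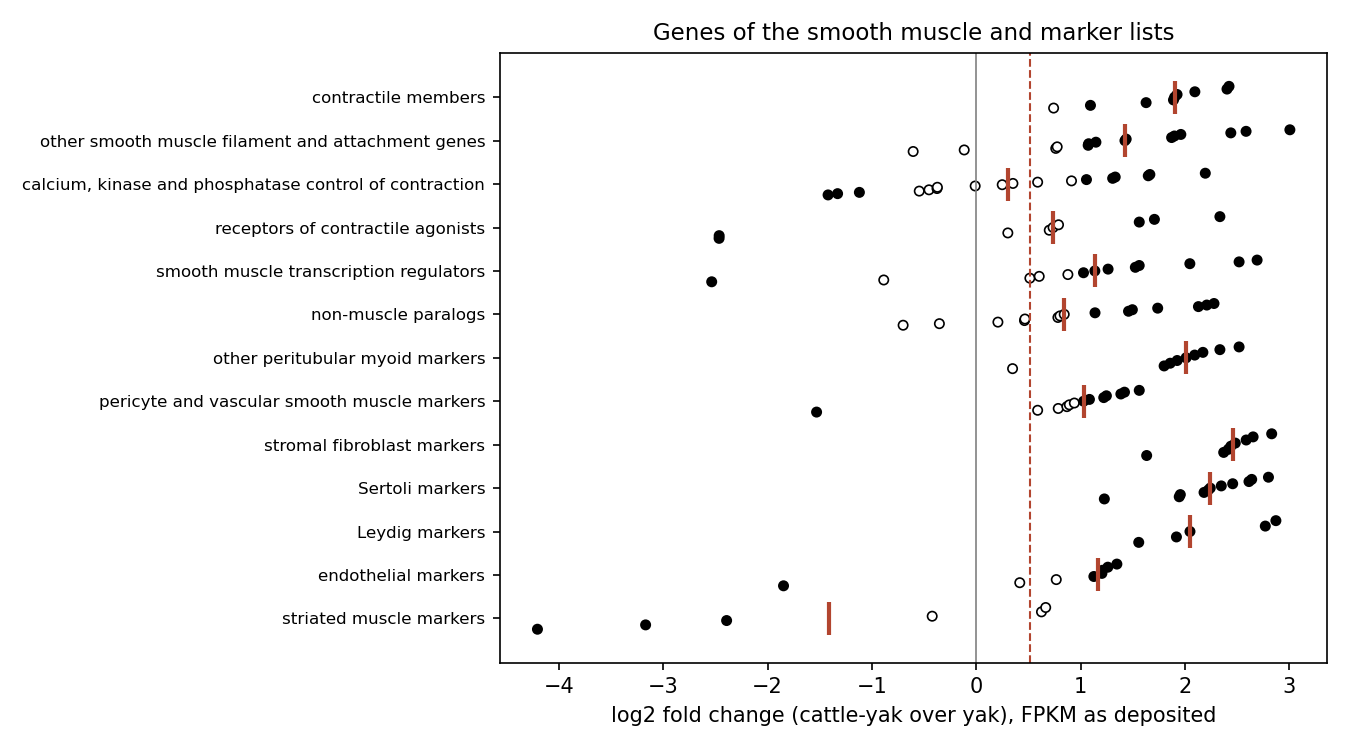
Log2 (foldchange) of single tested genes (points), cattle-yak over yak, FPKM as deposited, for the contractile genes, the related smooth muscle lists and the marker lists of other cells. The contractile genes spread from 0.74 to 2.42, while the genes of contraction control reach from below 0 to 2.19. The striated muscle markers spread from −4.21 to 0.66.

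Genes other than the 9 members with the most similar profile were found by the distance of their 6 values from the members' mean. The values were log2 (FPKM + 1), each minus the yak mean, and genes of the other lists were not left out. BMP1, a protease that matures collagen, was the nearest at a distance of 0.078, with 7.62, 10.1 and 8.32 FPKM in C1 to C3 and 2.06, 1.69 and 1.62 in Y1 to Y3. SYNE2, a nuclear envelope protein that binds actin, followed at 0.12, then KDM4A and PRR12 at 0.15 and ACAP3 at 0.16. Among the members TAGLN (0.29) and CNN1 (0.30) were nearest to the members' own mean and SMTN (1.82) farthest from it.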

How the data were processed

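Testis RNA of 3 cattle-yak and 3 yak was sequenced as stranded mRNA libraries of 150 bp paired-end reads. The authors trimmed the reads, mapped those of both groups to the yak genome LU_Bosgru_v3.0 with HISAT2, and deposited 1 FPKM value per gene and animal, without scaling between libraries and beside GO and KEGG terms. The methods of the study name Cufflinks for FPKM and HTSeq for read counts. Since the values are whole fragments over length and depth, which of the tools gave them is uncertain. DESeq is named in the submitters' processing notes, and tool versions are not given in the sources used here. Libraries are named C1 to C3 and Y1 to Y3.

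Whole fragments were recovered from the steps of the FPKM values for 17973 genes (100% of values within 0.03 fragments of a whole number, gene lengths whole for 99.3% of 10580 genes). On simulated data the recovery was right for 98.96% of 18036 genes. Of all genes, 15042 reached a mean FPKM of 0.5 and were tested in R 4.3.3 with limma 3.58.1 (log2 (FPKM + 1), variance trend, two-sided, Benjamini-Hochberg), and called at an adjusted p under 0.05 and a log2 (foldchange) beyond 1. On this scale the change of genes with low values is understated. In simulated data of this comparison limma called 83 of 100 genes changed 2.5-fold, 99 of 100 changed 4-fold and 1 of 14749 unchanged genes. The simulation used the same dispersion for all genes and, unlike these libraries, left most genes unchanged. It thus gives no error rate for the calls above. Ratios within a library were compared with exact permutation tests. Figures were drawn with matplotlib 3.10.9 in Python 3.11.15, and TMM factors for voom were computed from the recovered fragments.

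The members and gene lists were chosen with earlier results of these data known, so no list was tested as a set. From each list the text names the up to 4 genes with the highest mean FPKM, every gene called lower and the gene with the largest positive change, besides all members and the 5 genes nearest in profile. From the marker lists read for cell types only, a part of these genes is named. The results of some genes are not reported here. Listed symbols without a row, and sequences and chromosome positions, were not used here. Alternatives were other pseudocounts, filters, scalings, limma settings and thresholds, voom on recovered fragments, and the omission of each animal. Counting the row described as MYL9 as a member was added after seeing the data.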

Additional observations from a re-analysis of the deposited data

How the results depend on the processing

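The count of called contractile genes was 7 to 9 under the alternatives tried, other than the Sertoli- and Leydig-centred scalings, which gave 0 each. Under Sertoli-centred scaling the median of the members was −0.34 and the log2 (foldchange) was −0.61 for CALD1, −1.14 for TPM2, −0.14 for MYLK, −0.35 for CNN1, −0.34 for DES, −1.50 for SMTN, −0.32 for TAGLN and −0.22 for the row described as MYL9. Under Leydig-centred scaling these values were −0.33 for the median, −0.61, −1.14, −0.14, −0.34, −0.33, −1.49, −0.31 and −0.21. In both, 0 genes of the other smooth muscle lists were called higher and 33 lower, against 28 and 6 of 55 as reported. Of all genes tested, 0.186% were called higher in both and 74% (Sertoli) or 73.9% (Leydig) lower. As reported, these shares were 33.4% and 20.8%. Both centrings lower every gene by the rise of the marker list, which is their construction. With median-of-ratios scaling the members' median was 1.32 and 17 list genes were called higher. With TMM factors in voom the median was 1.43 and 10 list genes were called lower, and 10 were also lower by the adjusted p alone. TPM2 lost its call under quantile (0.94), median-of-ratios (0.50) and TMM (0.57) scaling and without C2 (0.95). Leaving out 1 library gave 7 to 8 called members, a median of 1.79 to 2.01, 24 to 28 list genes higher and 6 lower, and left the direction of every member and of all 11 paralog ratios. No paired analysis was possible because the sample titles number the animals of the groups differently and nothing ties an animal of 1 group to an animal of the other. Depth was no limit for the members, with at least 155 fragments in each library. ADRA1A, ADRA1B and NKX2-3 were under the filter and were not tested.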

Other observations

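The annotation deposited with the values offers a wider view of contraction, read after the data had been seen. The KEGG pathway of vascular smooth muscle contraction was attached to 130 genes, among them ACTA2, CALD1, MYH11 and MYLK. Of its 105 tested genes, 48 were called higher in cattle-yak (45.7%, against 33.4% of all genes tested) and 14 lower (13.3%, against 20.8%), with a median log2 (foldchange) of 0.77. Under median-of-ratios scaling, in which 17.7% of all genes tested were called higher and 27.7% lower, 28 were called higher and 19 lower. Genes with the GO term stress fiber, the contractile actin bundles of non-muscle and smooth muscle cells, had 25 of 40 tested genes higher and 2 lower, and 17 and 4 under median-of-ratios scaling. The term muscle contraction had 16 of 38 higher and 10 lower, which became 10 and 10 under median-of-ratios scaling, with the share of lower genes near that of all genes. No test of these sets was made.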
